A study of Mus musculus with 8 samples.

Results

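The 10 S100 genes S100a3, S100a4, S100a6, S100a7a, S100a8, S100a9, S100a10, S100a11, S100a14 and S100a16 were followed in the skin of C57BL/6 mouse embryos labelled as mutant for Cyp26b1, which encodes an enzyme that degrades retinoic acid, and of their controls. They were taken by symbol, as 10 of 21882 gene symbols, and account for 12 of 27641 listed transcripts, because S100a14 has 3 and each other gene has 1. At embryonic day 16.5 (E16.5), whole skin of Cyp26b1-/- embryos was compared with that of wild-type embryos, and the authors merged the 2 libraries of each group into 1 value. At E18.5, 1 library of En1cre;Cyp26b1f/- embryos was set against 1 library of Cyp26b1f/+ embryos in dermis, and likewise in epidermis. En1cre recombines the floxed allele in cells that have expressed Engrailed 1, and by these genotypes the mutants also carry 1 allele fewer than the Cyp26b1f/+ controls in all their other cells. Values are FPKM, read fragments corrected for transcript length and library size, which can be compared between genes. Read depth cannot be had from FPKM, no spread between libraries can be computed, and the labels do not say whether the E16.5 libraries came from separate animals.

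S100 proteins are small EF-hand proteins that bind calcium, mostly as dimers, and then dock on to partner proteins. In skin they fall into several kinds. S100a3 is a protein of the hair cuticle. S100a4 and S100a6 are found in fibroblasts and other mesenchymal cells, and S100a4 also in macrophages. S100a8 and S100a9 form calprotectin, which neutrophils carry in large amounts and which stressed keratinocytes make, and S100a7a is the mouse relative of human psoriasin, an antimicrobial protein of inflamed epidermis. S100a10 and S100a11 bind annexins at membranes, and S100a14 and S100a16 are enriched in epithelia. Most of these genes lie at the edges of the epidermal differentiation complex, next to the genes of the cornified envelope.

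Some facts of the whole series bear on every value below. The size of a difference is the log2 of (mutant FPKM + 1) over (control FPKM + 1), minus the median of the same quantity over genes that reached 1 FPKM in one group or the other. That median was 0.43 in E16.5 skin, 0.12 for dermis and -0.18 for epidermis. The targeted gene, summed over its transcripts, stood at 58.2 FPKM in Cyp26b1-/- and 35.0 FPKM in wild-type skin. It stood at 101.7 and 54.2 FPKM in mutant and control dermis, and at 13.7 and 4.97 FPKM in mutant and control epidermis. This sum was thus not lower in any column labelled mutant. By transcript, NM_001177713 had 14.38 and 19.45 FPKM in Cyp26b1-/- and wild-type skin, and NM_175475 43.78 and 15.5 FPKM. At E18.5 each of these transcripts was higher in the mutant library. The labels do not name the deleted stretch of the gene and the FPKM cover whole transcripts, so mutant and control below mean the libraries so labelled, and each direction rests on those labels. All 7 lens genes of a marker list rose at E16.5 and summed to 1614 FPKM in Cyp26b1-/- skin against 7.45 FPKM in wild-type skin. The part of lens RNA in the E16.5 values was not tested. Keratinocyte markers were lower in mutant dermis, where 10 genes summed to 4887 FPKM against 16140 FPKM in control dermis, 9 of them more than 2-fold lower. Fibroblast markers were lower in mutant epidermis, where 8 genes summed to 79.9 FPKM against 421 FPKM in control epidermis, and the 6 of them that reached 1 FPKM were all more than 2-fold lower. Pdgfra and Lum, the markers of that list under 1 FPKM, had 0.08 and 0.57 FPKM, and 0.09 and 0.79 FPKM, in mutant and control epidermis. In such bulk samples fewer cells of a type and less RNA per cell cannot be told apart.

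The order of S100 levels differed between the tissues, and the highest members were in each case S100a10, S100a11, S100a14 and S100a16. In E16.5 skin S100a11 led with 1411 FPKM in Cyp26b1-/- and 973 FPKM in wild-type skin. It ranked 108 in either group among genes without a failed estimate, which leaves out some abundant genes such as Krt1 and Krt10. S100a10 followed with 519.8 and 455 FPKM, S100a16 with 434 and 289 FPKM, and S100a14 with 336 and 256 FPKM. In E18.5 epidermis S100a16 led with 1239 FPKM in the mutant and 1054 FPKM in the control, ahead of S100a14 with 1070.0 and 707 FPKM. In dermis the mutant library was led by S100a10 with 661 FPKM and the control library by S100a16 with 179.6 FPKM. Summed over the 10 genes, S100 RNA came to 2918 FPKM in Cyp26b1-/- and 2180 FPKM in wild-type skin, to 1518 and 525 FPKM in mutant and control dermis, and to 2802 and 2324 FPKM in mutant and control epidermis. These levels and sums are not set against the median gene, whose log2 fold was 0.43 in E16.5 skin. The 3 tables were normalised separately, and neighbours in these orders cannot be set against a spread between libraries.

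**Figure D1:**
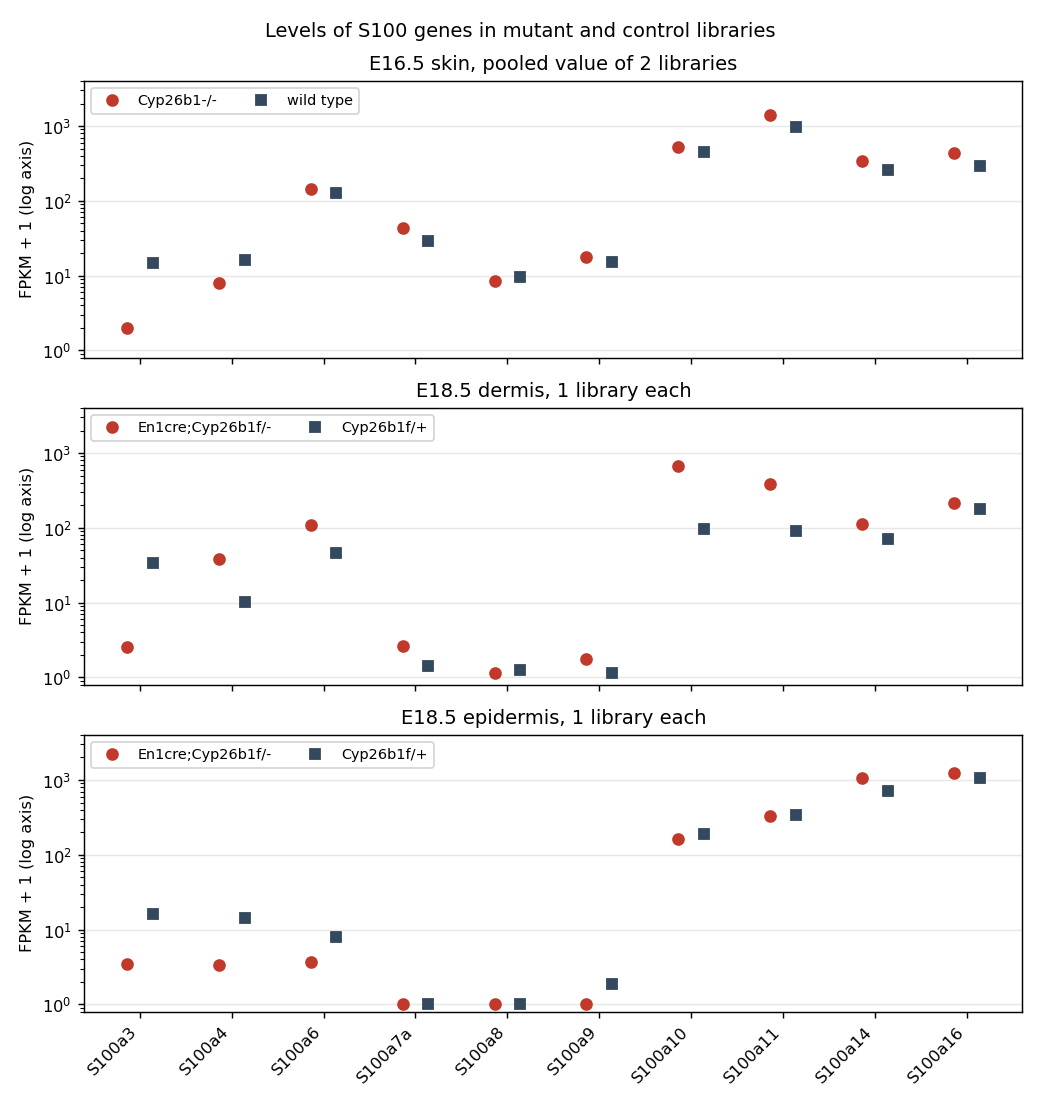
FPKM + 1 on a log axis for the 10 S100 genes in the 3 comparisons, with the mutant value (circle) left of the control value (square). At E16.5 each point is the authors' pooled value of 2 libraries and at E18.5 it is 1 library, so no error bars can be drawn. S100a3 lies lower in the mutant in all 3 panels, and S100a10 and S100a11 stand apart from their control in dermis alone among the 3 panels.

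In E16.5 skin, S100a3 and S100a4 fell in Cyp26b1-/- embryos and the other 8 members were not called in either direction. A gene was called by the authors' test statistic recomputed after subtracting the median transcript's fold, at an adjusted p under 0.05 over all 19608 tested transcripts. By that test 18.3% of 16263 genes were called, 10% as lower and 8.26% as higher, so 2 of 10 members is a share near the background. At the 2-fold level the same 2 genes were lower, a size reached by 4.51% of 14154 genes, 2.85% as lower and 1.67% as higher. The median of the 10 log2 folds was -0.22, against 0 for all genes. S100a3 had 1.02 FPKM in Cyp26b1-/- and 13.7 FPKM in wild-type skin, and its deposited log2 fold, once centred on the median, was -4.22 with an SE of 0.42 (Benjamini-Hochberg adjusted p = 1.12e-21, from the authors' Cuffdiff statistic after centring). S100a4 had 6.86 and 15.4 FPKM in Cyp26b1-/- and wild-type skin, or -1.64 on the same scale with an SE of 0.34 (adjusted p = 3.21e-05, from the authors' statistic after centring). The folds of the members not called ran from -0.64 for S100a8 to 0.18 for S100a7a on the log2(FPKM + 1) scale. The authors' deposited table, which does not subtract the median and calls 58.1% of genes, 54.7% as higher and 3.44% as lower, also lists S100a3 and S100a4 as lower, and lists S100a7a, S100a11, S100a14 and S100a16 as higher.

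At E18.5, with 1 library in each group, there is no test and genes are described by a 2-fold difference relative to the median. In dermis 8 of the 10 genes reached 1 FPKM in either library, and 5 were past 2-fold, as were 27.8% of 13398 genes. Of those, S100a4, S100a6, S100a10 and S100a11 were more than 2-fold higher in the mutant, where 14% of all genes were, and S100a3 was more than 2-fold lower, where 13.9% were. The median of these 8 log2 folds was 0.93. In epidermis 7 members reached 1 FPKM and 2 were past 2-fold, as were 8.34% of 11362 genes. Of the 7, 0 were more than 2-fold higher, where 3.49% of all genes were, and S100a3 and S100a4 were more than 2-fold lower, where 4.86% were. Their median was -0.08. Lower in the mutant by more than 2-fold in all 3 tables was S100a3 alone among the members, a pattern held by 39 of 10528 genes (0.37%) with at least 1 FPKM in each table. The members are short, with annotated lengths of at most 1069 bases, and among the 2134 genes in the members' length range in dermis 19% were more than 2-fold higher and 20.2% lower, a wider spread than over all genes.

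**Figure D2:**
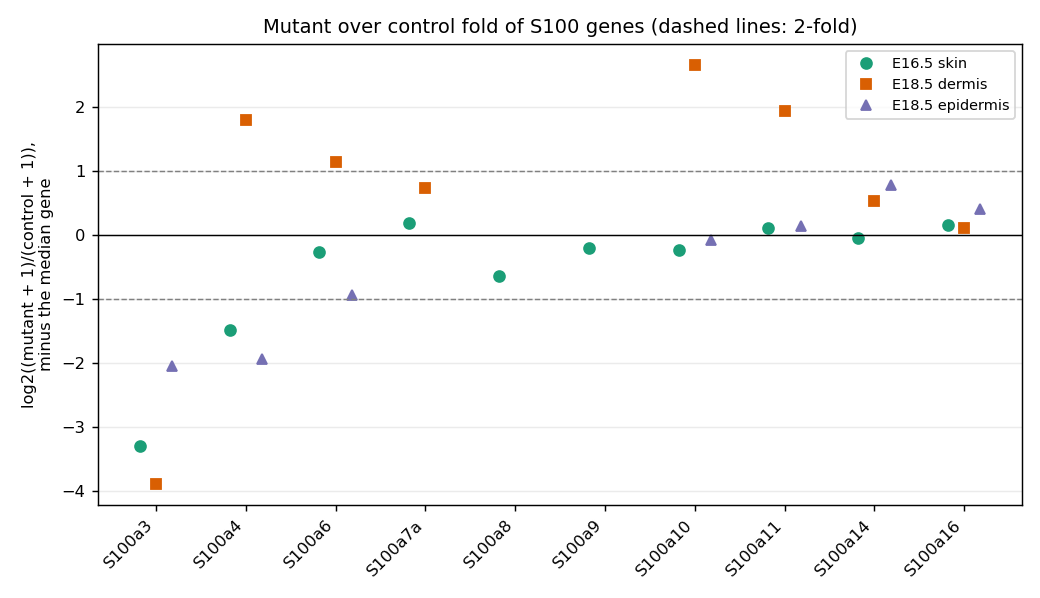
Log2 fold of mutant over control, (FPKM + 1), minus the median gene, for each S100 gene that reached 1 FPKM in a group. Circles are E16.5 skin, squares E18.5 dermis and triangles E18.5 epidermis, and dashed lines mark 2-fold. S100a3 lies below the lower line in all 3 comparisons, and S100a4 lies at 1.80 in dermis and at -1.93 in epidermis.

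S100a3, the hair cuticle member, was lower in every mutant library or pool. In dermis it had 1.54 FPKM in the mutant and 33.3 FPKM in the control, a log2 fold of -3.88, and in epidermis 2.51 and 15.3 FPKM in mutant and control, a fold of -2.04. On the same scale its fold at E16.5 was -3.29. The authors' deposited table marks it as significant in each of the 3 comparisons, which at E18.5 compares 1 library with 1 other. Most genes of a hair shaft and inner root sheath list were lower in the same samples, and their part in the S100a3 values was not tested. Of the 10 listed genes, 10 fell at E16.5, 10 were more than 2-fold lower in dermis and 7 in epidermis, with median log2 folds of -2.66, -4.51 and -2.81. Tchh, an inner root sheath gene outside that list, was called higher at E16.5, with 58.0 and 22.5 FPKM in Cyp26b1-/- and wild-type skin. Its log2 fold was -6.15 in dermis and -0.31 in epidermis. Krt71, an inner root sheath keratin, had 8.37 FPKM in mutant and 504 FPKM in control dermis, and 1.11 and 45.3 FPKM in mutant and control epidermis. Padi3, the peptidylarginine deiminase that in human hair citrullinates S100A3, fell to 1.03 FPKM in Cyp26b1-/- skin, against 2.46 FPKM in wild type (log2 fold -1.20). It had 1.87 and 19.2 FPKM in mutant and control dermis (-2.94) and 0.72 and 2.66 FPKM in mutant and control epidermis (-0.91). Over the 6 values of the 3 tables, the gene whose mean-centred log2 profile lay nearest to that of S100a3 was the hair keratin Krt33a, at a Euclidean distance of 1.54.

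**Figure D3:**
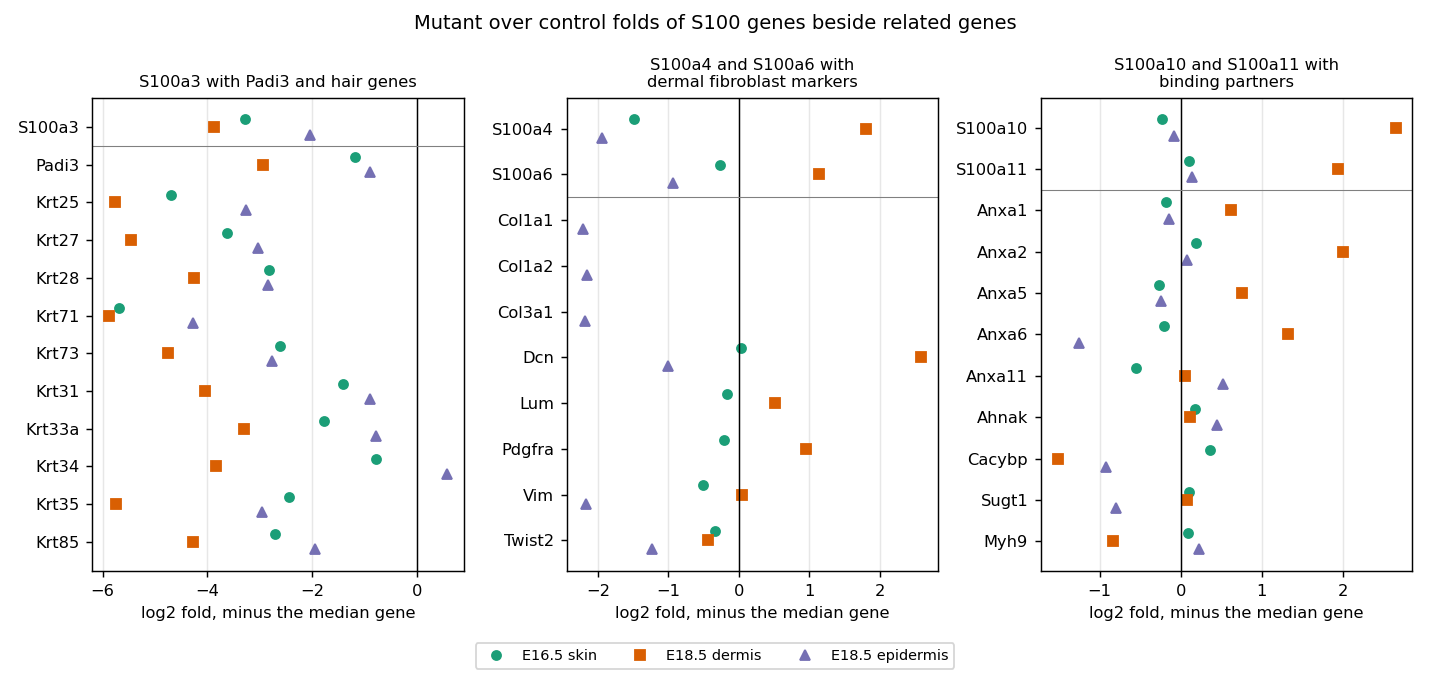
Log2 fold of mutant over control, minus the median gene, for S100a3 beside Padi3 and 10 hair genes, for S100a4 and S100a6 beside 8 fibroblast markers, and for S100a10 and S100a11 beside 9 binding partners. Symbols are the 3 comparisons, and a missing symbol is a gene under 1 FPKM in both groups or with a failed estimate. Padi3 and hair genes other than Krt34 in epidermis lie left of 0 with S100a3, and Anxa2 lies with S100a10 and S100a11 in dermis.

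The start regions of S100a3 and S100a4, which fell at E16.5, are shown with that of S100a11, the one further member with a nuclear receptor half-site in a window at its listed start, since the gene named in the genotypes acts on retinoic acid. RefSeq windows were found for 8 of the 10 members, S100a10 and S100a14 having none, and for 7 of them a window lay within 50 bases of the listed transcript start. Each sequence below is the 250 bases before the start on the gene's own strand, matched to mm9, with capitals marking any of 4 motifs on either strand. The first motif is AGGTCA, the half-site of retinoic acid and other nuclear receptors. The second is TGANTCA, the AP-1 site. The third is CTTTGA, the core of LEF/TCF sites, and the last is the start-site box TATAAA. S100a3 lies at chr3:90403886-90404135, S100a4 at chr3:90407442-90407691 and S100a11 at chr3:93324168-93324417, all on the plus strand.
S100a3: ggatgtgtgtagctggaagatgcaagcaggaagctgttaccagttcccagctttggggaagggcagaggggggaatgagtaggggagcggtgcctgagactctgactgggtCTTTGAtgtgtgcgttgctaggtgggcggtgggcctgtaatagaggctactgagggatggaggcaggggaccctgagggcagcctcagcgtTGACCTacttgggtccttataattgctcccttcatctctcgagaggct
S100a4: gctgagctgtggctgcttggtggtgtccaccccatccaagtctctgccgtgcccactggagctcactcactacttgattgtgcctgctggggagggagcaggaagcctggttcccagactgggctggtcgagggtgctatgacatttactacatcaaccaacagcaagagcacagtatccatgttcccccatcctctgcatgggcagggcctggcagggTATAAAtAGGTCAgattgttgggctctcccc
S100a11: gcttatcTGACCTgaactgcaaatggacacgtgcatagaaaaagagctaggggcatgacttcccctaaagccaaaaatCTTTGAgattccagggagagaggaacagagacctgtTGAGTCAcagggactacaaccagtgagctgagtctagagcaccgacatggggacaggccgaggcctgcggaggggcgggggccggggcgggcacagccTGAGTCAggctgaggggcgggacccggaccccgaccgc

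AGGTCA was found in 3 of the 7 windows, those printed, and in 14% of 32536 mouse windows of the same length. In S100a3 it lies on the minus strand from -48 to -43, in S100a4 on the plus strand from -24 to -19, with TATAAA from -31 to -26, and in S100a11 on the minus strand from -243 to -238. CTTTGA was in the windows of S100a3, from -139 to -134, and of S100a11, and in 13.9% of all windows. TGANTCA occurs at 2 places in the S100a11 window and in 6.73% of all windows, and TATAAA in the S100a4 and S100a8 windows and in 12.3% of all. Positions count back from the RefSeq start, no matches overlap, and a match describes letters and not a bound site.

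S100a4 and S100a6 were more than 2-fold higher in mutant dermis, and S100a4 was also more than 2-fold lower in mutant epidermis. S100a4, which lies just downstream of S100a3 at 90407692 to 90409967 on chromosome 3 (mm9), had 37.3 FPKM in mutant and 9.09 FPKM in control dermis, a log2 fold of 1.80. In epidermis it had 2.32 FPKM in the mutant and 13.4 FPKM in the control, a fold of -1.93. Of 10838 genes measured in both tissues, 79 (0.729%) were more than 2-fold higher in mutant dermis and more than 2-fold lower in mutant epidermis. S100a6 had 109.7 and 45.3 FPKM in mutant and control dermis (1.13) and 2.71 and 7.05 FPKM in mutant and control epidermis (-0.94), which is within 2-fold. At E16.5 S100a6 had 143 and 127 FPKM in Cyp26b1-/- and wild-type skin and was not called (adjusted p = 0.116, from the authors' statistic after centring).

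Markers of other cells differed in the same E18.5 libraries, and their part in the S100a4 and S100a6 values was not tested. In epidermis the collagen gene Col1a1 had 27.7 FPKM in the mutant and 149 FPKM in the control, and Vim, a mesenchymal filament gene, had a log2 fold of -2.16. In dermis 1 of 5 fibroblast markers with an estimate was more than 2-fold higher and 0 were lower, with a median log2 fold of 0.51. The proteoglycan gene Dcn had 358 and 53.8 FPKM in mutant and control (2.59), and the transcription factor gene Twist2 312 and 387 FPKM (-0.43). Col1a1, Col1a2 and Col3a1 had failed estimates there and give no fold. Of 12 neutrophil and myeloid markers, 7 reached 1 FPKM in dermis and summed, over all 12, to 58.4 FPKM in the mutant and 22.8 FPKM in the control. Of the 7, 2 were more than 2-fold higher in the mutant and 1 lower. Lyz2, a lysozyme of macrophages and neutrophils, had 43.3 and 6.12 FPKM in mutant and control, and Cxcr2, a chemokine receptor of neutrophils and other cells, 6.33 and 0.58 FPKM. Camp, an antimicrobial peptide gene of neutrophil granules, went the other way with 2.10 FPKM in the mutant and 12.1 FPKM in the control, so the list did not share one direction. The gene nearest to S100a4 in profile over the 6 values was Tyrobp, a signalling adaptor of myeloid cells, at a distance of 1.17. Tyrobp had 129.7 and 26.7 FPKM in mutant and control dermis and 17.0 and 70.3 FPKM in mutant and control epidermis. At E16.5 the profiles parted. Tyrobp had 51.5 and 47.2 FPKM in Cyp26b1-/- and wild-type skin, while S100a4 had 6.86 and 15.4 FPKM and was called lower. The gene nearest to S100a6 was Sdpr, a caveolar protein gene, at 0.47, and next to it the collagen gene Col12a1 at 0.55.

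S100a10 and S100a11, the annexin-binding members, were more than 2-fold higher in mutant dermis and within 2-fold in the other comparisons. S100a10 had 661 FPKM in mutant and 95.6 FPKM in control dermis, a log2 fold of 2.66, the highest of the 10 genes. The authors' deposited table marks it as significant in that comparison of 1 library with 1 other. S100a11 had 384 and 91.1 FPKM in mutant and control dermis, a fold of 1.94. The part of the differing keratinocyte, fibroblast and myeloid marker levels of these dermis libraries in both values was not tested. In epidermis S100a10 had 159.6 and 191 FPKM in mutant and control (-0.08), and S100a11 326 and 335 FPKM (0.14). At E16.5 their folds were -0.24 and 0.11 and neither was called (adjusted p = 0.163 and 0.84, from the authors' statistic after centring), while without the median subtracted both were positive, at 0.19 and 0.54.

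Anxa2, whose protein forms a tetramer with S100A10, had 807 FPKM in mutant and 184 FPKM in control dermis, a log2 fold of 2.01, and 766 and 820 FPKM in mutant and control epidermis (0.08). Anxa1, the partner of S100A11, had 51.4 and 30.2 FPKM in mutant and control dermis (0.63). Of 10 partner genes in all, 0 rose and 3 fell at E16.5 (Anxa6, Anxa11 and Padi3) relative to the median, while the authors' deposited table, which is not centred, calls 6 higher and 1 lower. Anxa6 is a gene whose direction flips with the scaling, at 191 and 164 FPKM in Cyp26b1-/- and wild-type skin. In dermis 2 were more than 2-fold higher, Anxa2 and Anxa6, and 2 lower, Padi3 and Cacybp, which encodes a calcyclin-binding protein with 12.6 and 34.9 FPKM in mutant and control. In epidermis 1 was more than 2-fold lower, Anxa6, with 9.79 and 28.2 FPKM in mutant and control. The partner list had medians of -0.05, 0.09 and -0.19 in skin, dermis and epidermis, so its members did not share one direction. The profiles nearest to S100a10 and S100a11 were those of Snrpg, a small nuclear ribonucleoprotein gene, at a distance of 0.29, and Rps25, a ribosomal protein gene, at 0.31. Snrpg had 456 and 57.2 FPKM in mutant and control dermis, and Rps25 497 and 93.0 FPKM.

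S100a14 and S100a16, the epithelial members, stayed within 2-fold in every comparison. S100a16 had 210.5 and 179.6 FPKM in mutant and control dermis (log2 fold 0.10), and its epidermal values gave 0.41. S100a14, summed over its 3 transcripts, had 111 and 70.0 FPKM in mutant and control dermis (0.53) and a fold of 0.77 in epidermis. Their levels were not lower in mutant dermis. Of 10 keratinocyte markers 9 were more than 2-fold lower there, among them the basal keratin gene Krt5 with 1806 and 6265 FPKM in mutant and control. The part of these marker levels in the S100a14 and S100a16 values was not tested. In epidermis Krt5 had 704 and 2634 FPKM in mutant and control, and the envelope precursor gene Ivl 709 and 334 FPKM. Of the 7 keratinocyte markers with an estimate there, 1 was more than 2-fold higher and 4 lower. Nearly all S100a14 RNA came from transcript NM_025393, with 1030.4 and 689.7 FPKM in mutant and control epidermis. The minor transcript NM_001163525 had 25.7 and 8.42 FPKM in the same libraries, and 29.2 and 16.2 FPKM in Cyp26b1-/- and wild-type E16.5 skin. In the recomputed test at E16.5 no S100a14 transcript was called, the lowest adjusted p being 0.158 for NM_001163526.

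S100a7a, S100a8 and S100a9, the alarm-related members, were measurable at E16.5 and near or at 0 at E18.5. S100a7a had 42.7 FPKM in Cyp26b1-/- and 27.6 FPKM in wild-type skin (adjusted p = 0.666, from the authors' statistic after centring), S100a8 7.36 and 8.68 FPKM (0.254) and S100a9 16.7 and 14.1 FPKM (0.689). In E18.5 dermis S100a7a had 1.59 and 0.43 FPKM in mutant and control, S100a8 0.13 and 0.25 FPKM, and S100a9 0.75 and 0.16 FPKM. In epidermis S100a7a and S100a8 were listed at 0 in both libraries, and S100a9 at 0 in the mutant and 0.85 FPKM in the control. The calprotectin pair was therefore not above 1 FPKM in any of the 4 E18.5 libraries. The neutrophil granule genes Mpo and Elane had 0.16 and 0.60 FPKM and 0.13 and 0.39 FPKM in Cyp26b1-/- and wild-type skin. Camp and Ltf of the same marker list had 1.26 and 2.47 FPKM and 1.15 and 1.17 FPKM there. Of the 12 myeloid markers 1 rose at E16.5 and 4 fell relative to the median, and the authors' deposited table, not centred, calls 3 higher and 2 lower. Cxcr2 was the one that rose, with 13.8 and 3.32 FPKM in Cyp26b1-/- and wild-type skin, and the granule gene Ngp had 1.87 and 4.13 FPKM. No S100 receptor gene with an estimate passed the recomputed test or the 2-fold level. Ager had 4.13 and 4.70 FPKM, Tlr4 1.44 and 1.08 FPKM and Bsg 420 and 299 FPKM in Cyp26b1-/- and wild-type skin. Of these 3 tested genes 0 rose and 0 fell relative to the median, while the authors' deposited table, not centred, calls 1 higher. Cd36, the remaining receptor gene listed, had a failed estimate at E16.5. At E18.5, 0 of 3 receptor genes in dermis and 0 of 2 in epidermis that reached 1 FPKM were past 2-fold.

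Along chromosome 3 the members lie in 2 groups. A first cluster of 8 spans 169 kb from S100a14 at 90330771 (mm9) to S100a9, and S100a11 and S100a10 follow 2825 kb further on, with the Sprr, Lce and S100 fused-type genes between them. In dermis 26 other genes of this interval had at least 1 FPKM. Of these, 24 were more than 2-fold lower in the mutant, where 13.9% of all genes were, and 0 higher, where 14% were. Their median log2 fold was -1.85. Of the 8 members measured in dermis, S100a3 was the one with a negative fold. Of 10 keratinocyte markers, 9 were also more than 2-fold lower in dermis, with a median of -1.80. Their part in the interval counts was not tested. At E16.5, 26 of 41 other genes of the interval were more than 2-fold lower and 4 higher, with a median of -1.39. Over all genes 2.85% were lower and 1.67% higher by that size. In epidermis 3 of 38 were lower and 11 higher, with a median of 0.40, against 4.86% and 3.49% of all genes. No other listed locus overlaps that of a member.

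**Figure D4:**
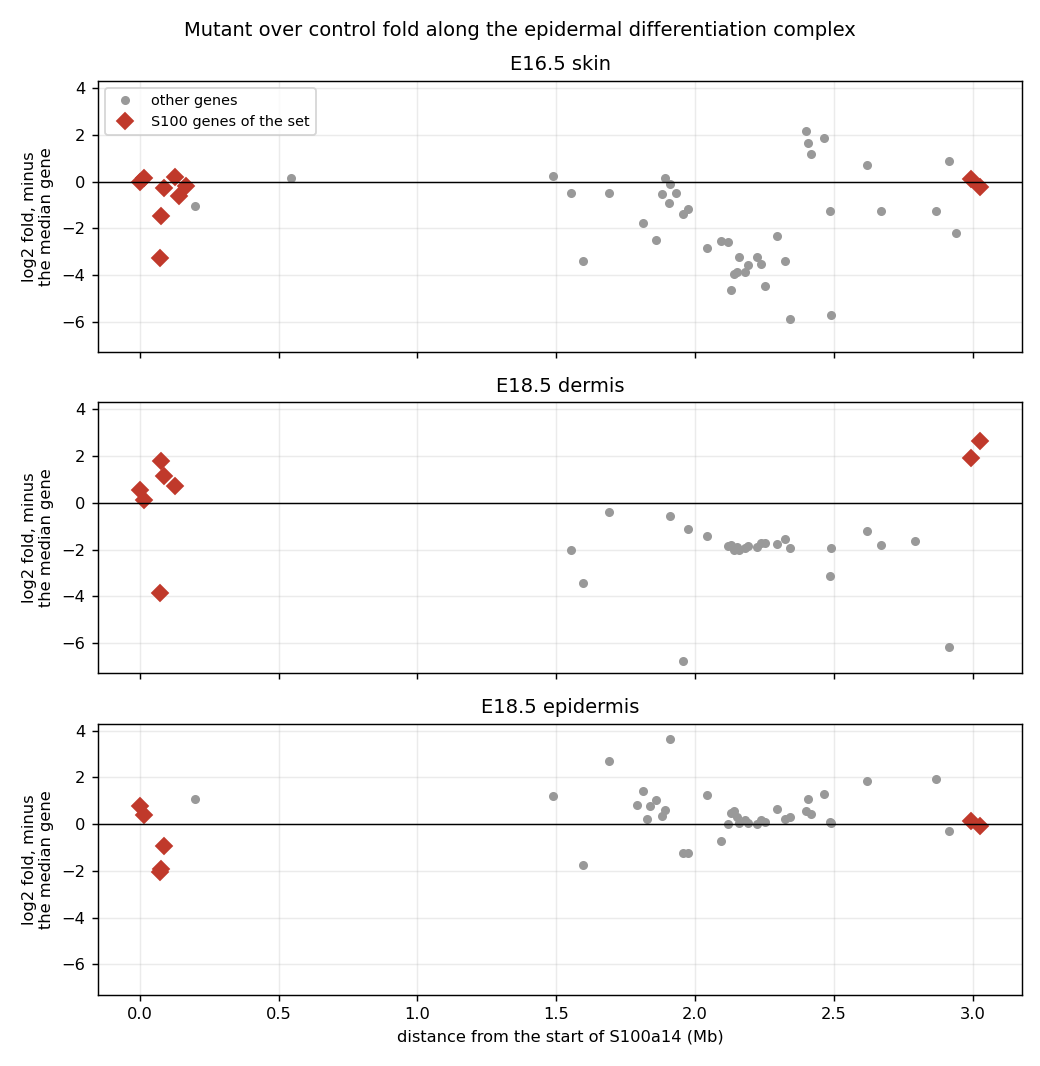
Log2 fold of mutant over control, minus the median gene, against distance in Mb from the start of S100a14, for genes of the interval that reached 1 FPKM in a group. Diamonds are the S100 genes followed here and grey circles the other genes. In dermis the other genes lie below 0 and the S100 genes other than S100a3 above it.

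The fused-type genes, which join an S100 domain to a long repeat and build the keratohyalin and hair sheath matrix, went in both directions at E16.5, where 3 of 5 tested fell and 2 rose. Tchhl1 had 0.10 and 2.80 FPKM in Cyp26b1-/- and wild-type skin, Flg2 3.27 and 6.51 FPKM, and Tchh, which encodes trichohyalin of the inner root sheath and rose, 58.0 and 22.5 FPKM. In dermis 4 of 4 were more than 2-fold lower, with Tchh at 3.17 and 272 FPKM in mutant and control. In epidermis 2 of 3 were more than 2-fold higher, namely Rptn with a log2 fold of 1.95 and Crnn with 5.60 and 1.07 FPKM in mutant and control, both of which encode cornified layer proteins. Of 6 other S100 genes, S100a1 was the 1 that fell at E16.5 and 0 rose, with 41.6 and 44.3 FPKM in Cyp26b1-/- and wild-type skin, and the authors' deposited table calls none of them. S100a13, the immediate neighbour of S100a14, had 34.2 and 7.35 FPKM in mutant and control dermis (1.95), and S100b, a gene of Schwann cells and melanocytes, had 2.18 and 0.44 FPKM (1.02). In epidermis 0 of the 2 that reached 1 FPKM were past 2-fold.

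For the remaining members the nearest profiles over the 6 values were, in order of distance, Mab21l2 for S100a8 at 0.30, Csnk2b for S100a16 at 0.35, Psd4 for S100a14 at 0.45, Prdx1 for S100a9 at 0.48 and Slc2a3 for S100a7a at 0.59. These distances are descriptions over 6 values from 8 libraries.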

How the data were processed

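RNA from whole skin (E16.5) and from separated dermis and epidermis (E18.5) was sequenced from Illumina TruSeq libraries, per the labels' protocols. The tools TopHat 1.3.2, Cuffdiff 1.3.0, Cufflinks and Bowtie 0.12.7.0 and the build mm9 are named, without roles, per the submitters' processing notes. How strand was handled is not stated there. The authors deposited FPKM to 2 decimals for each RefSeq transcript, with a log2 fold, a test statistic (a score, of opposite sign to the fold), a p-value and a q-value, per the file headers. The E16.5 columns pool 2 libraries each.

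FPKM were summed by symbol and 1 FPKM was added before taking logs, so changes of low genes are understated. Genes with a failed row were left out of folds. The implied SE is the deposited log2 fold divided by the statistic, and describes Cuffdiff's model, not animals. Over tested transcripts of at least 1 FPKM its median was 0.17 at E16.5. The E16.5 test subtracts the median deposited log2 fold (0.47), uses a two-sided normal p and adjusts by Benjamini-Hochberg. A gene counted as called if its called transcripts all pointed one way. Transcripts at 0 FPKM in one group kept the deposited call. This procedure was run on simulated data whose noise was drawn at the implied SE. That checks the computation and cannot show whether this SE covers variation between animals. Transcript lengths are those of the GENCODE annotation of the same build, as the median over a symbol's transcripts. Locus starts were raised by 1 base. Upstream windows came from the RefSeq promoter table (GRCm38.p6) and were placed in mm9 by exact match. Python 3.11.15, numpy 2.4.6, pandas 2.3.3 and scipy 1.17.1 were used.

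The 10 members and the 9 gene lists were chosen with earlier results of these data known. All members are named, and of each list up to 4 genes with the largest fold in a comparison. For each member the gene with the smallest distance of mean-centred log2(FPKM + 1) over the 6 columns is named, among genes of 1 transcript with at least 5 FPKM in a column, leaving out short RNA, predicted and sex-linked genes. Col12a1, Mpo, Elane and a few further genes outside this rule, such as Pdgfra and Lum in epidermis, were named after their values were seen. Alternatives tried were a pseudocount of 0.1, no centring, other filters, the highest transcript, a 1.5-fold level, the deposited q-value and a threshold of 0.01.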

Additional observations from a re-analysis of the deposited data

Results flagged for a closer look

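At the main settings, S100a4 was the member whose differences between mutant and control ran past 2-fold in opposite directions in the 2 tissues of E18.5. Its log2 fold was 1.80 in dermis and -1.93 in epidermis, a gap of 3.74 on the log2 scale. It had 37.3 and 9.09 FPKM in mutant and control dermis, and 2.32 and 13.4 FPKM in mutant and control epidermis. Each tissue had 1 mutant and 1 control library, with a different number in the title of each of the 4, and the difference between the tissues was not tested. S100a6 came near the same pattern, at 1.13 in dermis and -0.94 in epidermis, and held it under some alternative settings given below.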

How the results depend on the processing

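The 2 E16.5 calls, S100a3 and S100a4 lower, were also made at an adjusted p under 0.01 and with adjustment over transcripts of at least 1 FPKM. With the deposited q-value at 0.05 and no centring, 6 members were called, the same 2 lower and 4 higher, because no median is subtracted there. Without centring 4 E16.5 folds, none of a called gene, had the other sign. With no filter on low values S100a14 also had a positive E16.5 fold, 0.14. In dermis 5 or 6 members were past 2-fold under the alternatives tried, and in epidermis 2 or 3, with 4 at the 1.5-fold level. At that level 3 were lower in epidermis and 1 was higher, S100a14, with a log2 fold of 0.77. At the 2-fold level the member added in epidermis was S100a6, at -1.14 with a pseudocount of 0.1 and -1.12 without centring. It was at -1.10 with no filter on low values and -1.05 with the median over genes of at least 5 FPKM. In dermis S100a6 stayed more than 2-fold higher under each of these settings. Of 125 member folds recomputed, 16 moved by more than their implied SE, all at E16.5, and 0 of those past 2-fold changed sign. The dermis comparison had a median implied SE of 0.75 and the epidermis comparison one of 0.54, while E16.5 skin had 0.17. This count therefore cannot show that the E18.5 folds depend less on the processing. With a pseudocount of 0.1 the dermis fold of S100a7a went from 0.73 to 1.53, past 2-fold. It was not counted as moved, because its implied SE was 1.45. Leaving out a library was not possible, since the E16.5 columns are pooled and each E18.5 group is 1 library. No paired analysis was possible because the E16.5 columns hold merged libraries and the E18.5 groups share no replicate number. Depth is unknown, so values under 1 FPKM, as for S100a8 and S100a9 at E18.5, show a low level and not its size.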
